A study of Mus musculus with 30 samples.

Results

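The genes described here are 39 genes of the cell cycle, of which 16 act in DNA replication and 23 in mitosis, chosen by name as well-known members of these processes and followed through all 6 groups of the study. The probe annotation named 38 of the 39 by at least 1 probe set, 16 of 16 replication genes and 22 of 23 mitosis genes, among 18193 named genes in all. The expression of Ccnb1 was not analysed here, while its promoter is counted in the promoter shares below. The 38 genes were read by 85 probe sets, with 1 to 5 per gene, and each gene is described by its probe set with the highest mean over all arrays, a choice that does not use the differences between groups. Liver RNA of single male mice, 6 to 9 months old, was hybridized to Affymetrix mouse genome arrays, 1 array per mouse and 30 arrays in all. PPARα-null (Null) mice of strain 129S4/SvJae-Pparatm1Gonz/J, which carry a targeted Ppara allele in every tissue, and WT mice of strain 129S1/SvlmJ received 0, 3, or 10 mg/kg perfluorooctane sulfonate (PFOS) by gavage in 0.5% Tween 20 on 7 consecutive days. The groups, each of 5 mice, are written as Null or WT with the dose, and the 0 mg/kg groups are the controls. The purchased Null and WT mice were of different substrains, so genotype and substrain cannot be told apart in any comparison between them. Values are log2 expression values, on which a difference of 1 is a 2-fold difference, and the median of all values on the arrays was 5.65.

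Replication genes are switched on as a cell leaves G1 and prepares to copy its DNA. The Mcm2 to Mcm7 proteins form the ring-shaped helicase that is loaded at replication origins, and other members supply deoxynucleotides or build and join the new strands. Mitosis genes are switched on later, in G2, when cyclins A and B and their kinase Cdk1 start chromosome condensation and spindle assembly, and the anaphase-promoting complex then destroys the cyclins so that the cell can divide. Hepatocytes of adult liver rarely divide, and both sets of genes are known to be low in resting liver and high during its regrowth. PFOS activates PPARα, a nuclear receptor known for liver growth and hepatocyte proliferation after activation in rodents, and the comparisons ask which of these genes moved with dose in mice with and without the receptor.

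Transcription factors of the E2F family are the best-known regulators of replication genes, while mitosis genes are known for CCAAT boxes and a nearby element called the CHR. The 250 bases before the gene start were taken from RefSeq promoters (GRCm38.p6) for 31 of the 39 genes, with 35 promoters in all, since Lig1, Mcm7, and Prc1 have several. The motifs searched on both strands were E2F sites spelled TTTCGCGC, TTTGGCGC, TTTCCCGC, or TTTGGGCGC, CHR elements spelled TTTGAA or TTCGAA, and the box CCAAT. Of the 19 promoters of mitosis genes, 17 (89.5%) held CCAAT, against 9 of 16 (56.2%) of replication genes and 33.8% of all 32851 promoters in the table. A CHR element was found in 9 promoters of mitosis genes (47.4%), each of which also held CCAAT, against 2 of replication genes (12.5%) and 17.1% of all promoters. An E2F site was found in 4 promoters of replication genes (25%), against 1 of mitosis genes (5.26%) and 1.61% of all promoters. No hit of one kind overlapped a hit of another kind in these promoters, although 2 E2F spellings can overlap, as they do in Mcm6. A match of letters is a description only, and a window without one says nothing about the factor. In Ccnb2, printed below, the CHR spelling lies 161 bases before the start, away from its CCAAT boxes at 82, 49, and 16, so it may be a match of letters alone. The promoters of 4 genes described below are printed 5′ to 3′ with every match in capitals (a match on the other strand stands as its reverse complement). They show a replication gene with E2F sites (Mcm6), mitosis genes with CCAAT boxes and a CHR element (Ccnb2, Ube2c), and a mitosis gene in which none of these spellings was found (Birc5).
Mcm6 (chr1:128359706-128359955, minus strand): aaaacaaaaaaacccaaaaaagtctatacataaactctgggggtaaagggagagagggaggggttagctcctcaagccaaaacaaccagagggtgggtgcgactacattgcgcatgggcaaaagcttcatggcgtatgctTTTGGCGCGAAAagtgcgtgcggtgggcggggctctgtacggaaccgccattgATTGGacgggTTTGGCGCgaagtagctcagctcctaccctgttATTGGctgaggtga
Ccnb2 (chr9:70421555-70421804, minus strand): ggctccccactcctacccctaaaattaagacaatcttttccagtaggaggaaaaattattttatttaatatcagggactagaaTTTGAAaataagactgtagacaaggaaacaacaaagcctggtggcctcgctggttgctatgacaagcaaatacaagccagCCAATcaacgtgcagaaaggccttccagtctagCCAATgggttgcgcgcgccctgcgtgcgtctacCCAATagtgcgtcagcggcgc
Ube2c (chr2:164769679-164769928, plus strand): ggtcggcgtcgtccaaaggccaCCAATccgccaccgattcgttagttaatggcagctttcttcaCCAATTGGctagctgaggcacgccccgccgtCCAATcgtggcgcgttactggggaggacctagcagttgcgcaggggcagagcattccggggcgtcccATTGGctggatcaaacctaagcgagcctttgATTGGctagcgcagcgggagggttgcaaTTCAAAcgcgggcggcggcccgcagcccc
Birc5 (chr11:117848987-117849236, plus strand): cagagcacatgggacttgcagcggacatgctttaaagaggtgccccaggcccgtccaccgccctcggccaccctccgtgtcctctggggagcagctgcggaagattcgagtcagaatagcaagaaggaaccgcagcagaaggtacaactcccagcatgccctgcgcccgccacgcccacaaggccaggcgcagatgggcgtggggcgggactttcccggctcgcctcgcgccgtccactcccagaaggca

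Before the results, 2 arrays have to be set apart. Replicates 4 and 5 labeled WT 0 mg/kg read 8.99 and 9.07 for Ppara, below replicates 1 to 3 of that label (10.53 to 10.79), below WT arrays at 3 mg/kg (10.07 to 10.60) and 10 mg/kg (10.16 to 10.90), and below all Null arrays (9.35 to 10.26). They also read 13.04 and 12.99 for Cyp2b10, a cytochrome P450 that was at 8.11 to 8.43 in replicates 1 to 3, at 7.01 to 9.05 in Null controls, and at 10.65 or more in every array of the 4 PFOS groups. Both arrays therefore go against their label, and they are called the 2 doubted arrays. All arrays were kept as labeled, and counts of called genes that rest on the WT controls are given with and without the 2 doubted arrays. The Ppara probe set gave signal in Null mice as well, so it is a modest check. The 9 hepatocyte markers measured lay between 13.47 and 13.85 on average in every array, as the label liver requires, array medians lay between 5.60 and 5.69, and no 2 arrays correlated above 0.997.

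Averaged over the genes of each set, Null controls were low and close together, and both PFOS groups of Null mice lay above them. In Null mice the 22 mitosis genes averaged 5.08 ± 0.066 without PFOS, 5.65 ± 0.14 after 3 mg/kg, and 5.56 ± 0.34 after 10 mg/kg (SD over 5 arrays). The 16 replication genes averaged 6.27 ± 0.086 without PFOS, 6.71 ± 0.22 after 3 mg/kg, and 6.70 ± 0.35 after 10 mg/kg. At Null 10 mg/kg replicate 4 stood apart, and its means of 5.14 for mitosis and 6.21 for replication lay within the range of the Null controls, while its Cyp2b10 value of 12.03 lay with the other treated arrays. In WT mice the mitosis genes averaged 5.26 ± 0.15 after 3 mg/kg and 6.09 ± 0.19 after 10 mg/kg. The replication genes averaged 6.50 ± 0.16 and 7.00 ± 0.16 at these doses. The arrays labeled WT 0 mg/kg fell into separate sets, with mitosis means of 5.18, 5.02, and 5.38 in replicates 1 to 3 and 6.24 and 6.11 in the 2 doubted arrays, and replication means of 6.34, 6.25, and 6.56 against 7.46 and 7.19. The highest group mean of a gene was at WT 10 mg/kg for 31 of the 38 genes and the lowest at Null 0 mg/kg for 28, and without the 2 doubted arrays these counts were 32 and 23. No filter on low values was set, and 29 of the 38 genes would pass one that asks for values above 5.65 in at least 5 arrays. Of the 9 others, 4 carry 7 of the 37 calls made below: Ccne2 and Kif20a, whose highest values were 4.65 and 5.17, and Mki67 and Racgap1, above 5.65 in 3 arrays each. Of the 10 calls at Null 3 mg/kg, 3 were of such dim genes. In whole liver, a change in the number of dividing cells cannot be told apart from a change in RNA per cell.

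**Figure D1:**
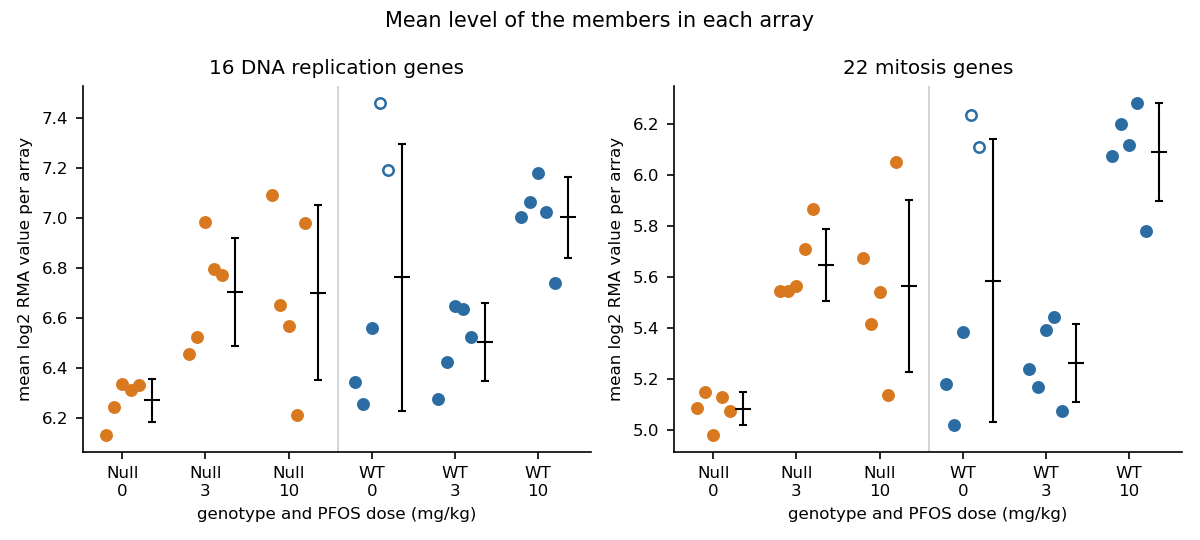
Each point is the mean log2 RMA value of the 16 replication genes (left) or the 22 mitosis genes (right) in 1 array, with genotype and PFOS dose in mg/kg on the x axis, and each bar marks a group's mean with its SD. Orange is Null, blue is WT, and open circles are the 2 doubted arrays, whose mitosis means of 6.24 and 6.11 lie with the WT 10 mg/kg arrays (5.78 to 6.29).

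**Figure D2:**
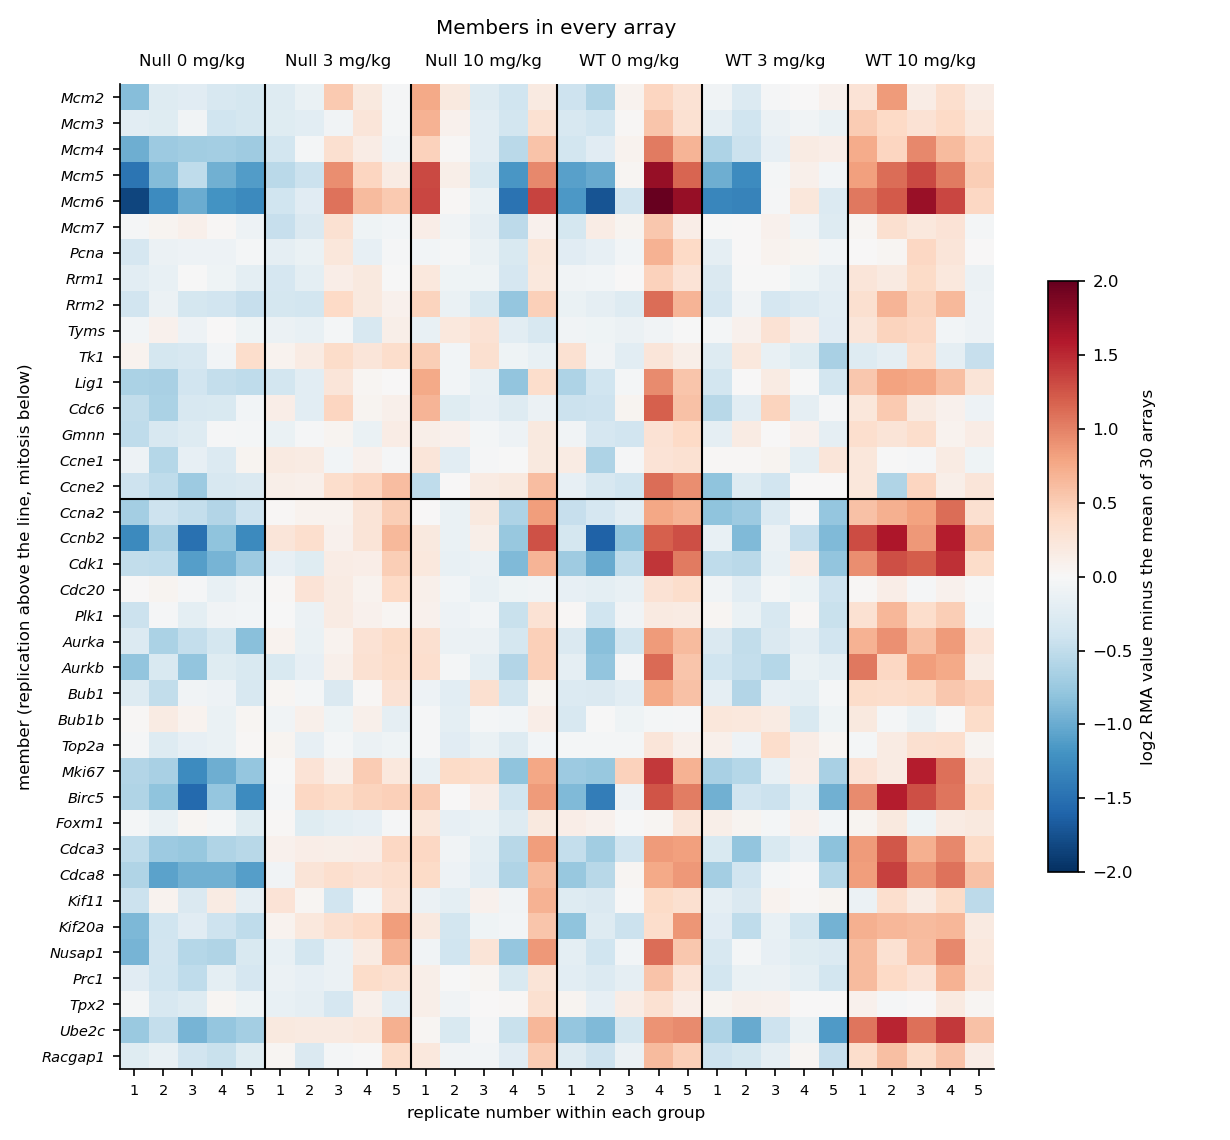
Rows are the 38 genes (replication above the line, mitosis below) and columns the 30 arrays by group and replicate number, and color gives the log2 value minus that gene's mean over 30 arrays. Null 0 mg/kg is mostly below the mean and WT 10 mg/kg mostly above it, replicates 4 and 5 of WT 0 mg/kg are above it, and replicate 4 of Null 10 mg/kg is below it for most genes.

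In Null mice, PFOS at 3 mg/kg raised 10 of the 38 genes (2 of 16 replication and 8 of 22 mitosis genes) at an adjusted p under 0.05 from limma (Benjamini-Hochberg over all 45037 probe sets), and 0 were called lower. Of all 18193 genes, 0.726% were called higher and 1.22% lower. At 10 mg/kg, 7 of the 38 were called higher (1 replication and 6 mitosis genes) and 0 lower, where 1.73% of all genes were called higher and 2.18% lower. With the WT arrays also in the fit, the calls were fewer, 5 genes at the lower dose and 3 at the higher, where 0.857% and 1.9% of all genes were called higher. In each of these comparisons 25 of the 38 genes had an unadjusted p under 0.05 (14.4% and 17.2% of all genes, the lower dose first). A positive change was found for 33 of 38 in both, against 47.7% and 54.5% of all genes. Their median change was 0.42 at the lower and 0.36 at the higher dose, where the median of all genes was -0.0074 and 0.015. By set, the median was 0.32 and 0.31 for replication genes and 0.58 and 0.51 for mitosis genes. At 3 mg/kg, all 5 treated arrays lay above all 5 controls for 15 genes (4 replication and 11 mitosis), a pattern shown by 2.90% of all genes, and at 10 mg/kg for 4 genes (1 and 3), against 2.60% of all genes. Without Null 10 mg/kg replicate 4, a setting chosen after seeing the data, 13 genes were called higher at 10 mg/kg, where 1.86% of all genes were.

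Leaving out each of the 15 Null arrays in turn gave 5 to 13 called genes at 3 mg/kg and 4 to 13 at 10 mg/kg. At 3 mg/kg the count was 6, 5, and 6 without Null 0 mg/kg replicates 2, 3, and 4, and 6 without Null 3 mg/kg replicate 5, and at 10 mg/kg it was 4 without Null 0 mg/kg replicate 3 or 4. Birc5, Ccnb2, Cdca8, Kif20a, and Ube2c were called at 3 mg/kg in each of these runs, and Birc5, Ccnb2, Cdca8, and Mcm4 at 10 mg/kg.

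Among the helicase and licensing genes, Mcm4, a helicase subunit, was the only one of 8 called in Null mice, at both doses. Mcm4 (1416214_at) read 5.94, 6.20, 6.23, 6.25 and 6.22 at 0 mg/kg, 6.55, 6.88, 7.25, 7.07 and 6.86 at 3 mg/kg and 7.38, 6.95, 6.71, 6.39 and 7.49 at 10 mg/kg in Null mice. Every treated array lay above every control. Its changes were 0.76 ± 0.17 (SE, adjusted p = 0.0368) at 3 mg/kg and 0.82 ± 0.17 (SE, adjusted p = 0.0155) at 10 mg/kg. The call at 3 mg/kg was lost in 9 of 15 runs with 1 array left out. Mcm6 (1416251_at), another helicase subunit and the one with the E2F sites printed above, had the largest changes of all 38 genes in Null mice and still missed the threshold. Its values were 4.56, 5.14, 5.41, 5.20 and 5.12 at 0 mg/kg, 6.00, 6.18, 7.48, 7.04 and 6.92 at 3 mg/kg and 7.74, 6.43, 6.27, 4.92 and 7.76 at 10 mg/kg in Null mice. The 3 mg/kg arrays all lay above the controls, whereas replicate 4 at 10 mg/kg fell among them. The changes were 1.64 ± 0.41 (SE, adjusted p = 0.0589) and 1.54 ± 0.41 (SE, adjusted p = 0.0519). Mcm5 had changes of 1.10 ± 0.37 (SE, adjusted p = 0.178) and 1.17 ± 0.37 (SE, adjusted p = 0.104), and the others of this group (Mcm2, Mcm3, Mcm7, the loader Cdc6, and the licensing inhibitor Gmnn) lay between -0.13 and 0.50.

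None of the 6 genes for the fork and nucleotide supply was called in Null mice, and 3 of the 6 had a probe set with changes below 0.12 in size at both doses (Pcna, the sliding clamp, Rrm1, a ribonucleotide reductase subunit, and Tyms, thymidylate synthase). Lig1 (1416641_at), the ligase that joins Okazaki fragments, read 6.24, 6.22, 6.49, 6.40 and 6.36 at 0 mg/kg, 6.50, 6.66, 7.12, 6.91 and 6.88 at 3 mg/kg and 7.63, 6.81, 6.73, 6.08 and 7.22 at 10 mg/kg in Null mice. Its treated arrays lay above the controls at 3 mg/kg and overlapped them at 10 mg/kg through replicate 4. The changes were 0.47 ± 0.20 (SE, adjusted p = 0.325) and 0.55 ± 0.20 (SE, adjusted p = 0.163). Tk1 (1416258_at), which salvages thymidine, overlapped its controls at both doses, with 9.67, 9.24, 9.28, 9.54 and 9.94 at 0 mg/kg, 9.67, 9.76, 9.96, 9.84 and 9.95 at 3 mg/kg and 10.08, 9.54, 9.91, 9.51 and 9.45 at 10 mg/kg in Null mice. Tyms (1442192_at) was the replication gene farthest from a call, with 3.38, 3.52, 3.33, 3.44 and 3.34 at 0 mg/kg, 3.32, 3.29, 3.40, 3.11 and 3.55 at 3 mg/kg and 3.29, 3.65, 3.72, 3.22 and 3.11 at 10 mg/kg. Its probe set stayed between 3.11 and 3.88 in all 30 arrays, and Rrm2 had changes of 0.33 ± 0.20 (SE, adjusted p = 0.559) and 0.28 ± 0.20 (SE, adjusted p = 0.550).

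Of the E cyclins, which start S phase with the kinase Cdk2, Ccne2 was called at 3 mg/kg and Ccne1 at neither dose. Ccne2 (1422535_at) read 3.12, 3.02, 2.81, 3.22 and 3.24 at 0 mg/kg, 3.66, 3.64, 3.88, 3.97 and 4.16 at 3 mg/kg and 3.03, 3.55, 3.70, 3.73 and 4.15 at 10 mg/kg in Null mice. At 3 mg/kg every treated array was above every control, and at 10 mg/kg replicate 1 was among them. Its changes were 0.78 ± 0.16 (SE, adjusted p = 0.0184) and 0.55 ± 0.16 (SE, adjusted p = 0.0687). Ccne1 (1441910_x_at) read 5.97, 5.50, 5.91, 5.79 and 6.12 at 0 mg/kg, 6.25, 6.24, 6.02, 6.15 and 6.04 at 3 mg/kg and 6.32, 5.86, 6.05, 6.07 and 6.26 at 10 mg/kg, with overlap at both doses and changes of 0.28 ± 0.11 (SE, adjusted p = 0.263) and 0.26 ± 0.11 (SE, adjusted p = 0.254).

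Of the mitotic cyclins, Cdk1, and Foxm1, 1 of 4 was called in Null mice, Ccnb2, a B cyclin, which rose at both doses. Ccnb2 (1450920_at) read 4.18, 4.81, 3.97, 4.66 and 4.18 at 0 mg/kg, 5.71, 5.80, 5.55, 5.72 and 6.11 at 3 mg/kg and 5.66, 5.32, 5.57, 4.71 and 6.74 at 10 mg/kg in Null mice. All 3 mg/kg arrays were above the controls and, at 10 mg/kg, all but replicate 4, and the level was 2.67-fold and 2.36-fold that of the controls, on the log2 scale 1.42 ± 0.26 (SE, adjusted p = 0.0113) and 1.24 ± 0.26 (SE, adjusted p = 0.0144). Ccna2 (1417910_at), cyclin A2, read 5.49, 5.75, 5.70, 5.58 and 5.75 at 0 mg/kg, 6.20, 6.24, 6.24, 6.43 and 6.66 at 3 mg/kg and 6.18, 6.04, 6.37, 5.55 and 7.01 at 10 mg/kg in Null mice. Its groups were apart at 3 mg/kg, and its changes of 0.70 ± 0.18 (SE, adjusted p = 0.0663) and 0.58 ± 0.18 (SE, adjusted p = 0.0997) did not pass the test, and neither did those of Cdk1, 0.82 ± 0.22 (SE, adjusted p = 0.0679) and 0.70 ± 0.22 (SE, adjusted p = 0.0915). Foxm1, a transcription factor of G2 and M phase genes, had changes of -0.039 and 0.061 on this probe set.

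The chromosomal passenger proteins Birc5 and Cdca8, which hold the kinase Aurkb at centromeres, had the smallest adjusted p-values of all 38 genes in Null mice. Birc5 (1424278_a_at), also called survivin, read 4.91, 4.70, 3.96, 4.74 and 4.25 at 0 mg/kg, 5.49, 5.92, 5.87, 5.95 and 5.98 at 3 mg/kg and 6.01, 5.51, 5.64, 5.11 and 6.36 at 10 mg/kg in Null mice. Its groups did not overlap at either dose. The changes were 1.33 ± 0.20 (SE, adjusted p = 0.00404), a 2.51-fold level, and 1.22 ± 0.20 (SE, adjusted p = 0.00381). Cdca8 (1436847_s_at), also called borealin, read 5.15, 4.68, 4.79, 4.80 and 4.65 at 0 mg/kg, 5.68, 6.01, 6.09, 6.05 and 6.09 at 3 mg/kg and 6.14, 5.66, 5.55, 5.16 and 6.39 at 10 mg/kg in Null mice. All treated arrays lay above all controls, replicate 4 at 10 mg/kg at 5.16 just above the highest control at 5.15. Its changes were 1.17 ± 0.18 (SE, adjusted p = 0.00373) and 0.97 ± 0.18 (SE, adjusted p = 0.00647). Aurka (1424511_at), a spindle pole kinase, read 4.96, 4.60, 4.76, 4.89 and 4.40 at 0 mg/kg, 5.31, 5.10, 5.30, 5.52 and 5.62 at 3 mg/kg and 5.56, 5.11, 5.11, 4.89 and 5.71 at 10 mg/kg and was called at 3 mg/kg alone, with 0.65 ± 0.15 (SE, adjusted p = 0.0386) there and 0.55 ± 0.15 (SE, adjusted p = 0.0520) at 10 mg/kg. In the same group, Aurkb, Plk1, and the checkpoint kinase Bub1 had changes between 0.10 and 0.55 at the 2 doses, none of them called. Bub1b had changes of -0.060 and -0.070, also not called, on the probe set used, which is 1 of its 3.

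Of the 3 genes around the anaphase-promoting complex, Ube2c, its ubiquitin-conjugating enzyme, and Cdca3, a regulator of entry into mitosis, rose at both doses. Ube2c (1452954_at) read 5.31, 5.57, 5.12, 5.28 and 5.37 at 0 mg/kg, 6.24, 6.23, 6.23, 6.26 and 6.76 at 3 mg/kg and 6.09, 5.74, 6.03, 5.60 and 6.72 at 10 mg/kg in Null mice. Treated and control arrays were apart at both doses. Its changes were 1.01 ± 0.17 (SE, adjusted p = 0.00515) and 0.71 ± 0.17 (SE, adjusted p = 0.0256). Cdca3 (1452040_a_at) read 5.30, 5.08, 5.05, 5.21 and 5.26 at 0 mg/kg, 5.90, 5.94, 5.92, 5.94 and 6.22 at 3 mg/kg and 6.22, 5.74, 5.62, 5.25 and 6.64 at 10 mg/kg, apart from the controls at 3 mg/kg and, through replicate 4, not at 10 mg/kg, with 0.80 ± 0.18 (SE, adjusted p = 0.0336) and 0.71 ± 0.18 (SE, adjusted p = 0.0386). On its highest-mean probe set without a suffix that marks probes shared by several transcripts (_s_at, _x_at, or _a_at), Cdca3 had a change of -0.038 at 3 mg/kg and -0.0025 at 10 mg/kg. That probe set averaged 2.46 over all arrays, beside 5.81 on the one used, so its sign is not read. A further probe set of Cdca3, marked _x_at, averaged 5.23 and is given below with the difference in response. Cdc20 (1439394_x_at), an activator of the complex, read 6.62, 6.67, 6.59, 6.47 and 6.55 at 0 mg/kg, 6.64, 6.88, 6.77, 6.68 and 7.01 at 3 mg/kg and 6.71, 6.56, 6.46, 6.53 and 6.55 at 10 mg/kg in Null mice, and its changes of 0.22 ± 0.081 (SE, adjusted p = 0.234) and -0.018 ± 0.081 (SE, adjusted p = 0.947) did not pass.

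Of the 8 genes of chromosomes, spindle, and cytokinesis, Mki67, the proliferation marker Ki-67, was called at both doses and Kif20a, a kinesin of cytokinesis, at 3 mg/kg. Mki67 (1426817_at) read 4.20, 4.14, 3.54, 3.82 and 4.02 at 0 mg/kg, 4.79, 5.07, 4.89, 5.30 and 5.00 at 3 mg/kg and 4.65, 5.17, 5.15, 3.99 and 5.56 at 10 mg/kg in Null mice. At 3 mg/kg all treated arrays were above the controls and at 10 mg/kg all but replicate 4. Its changes were 1.06 ± 0.21 (SE, adjusted p = 0.0179) and 0.96 ± 0.21 (SE, adjusted p = 0.0201). Kif20a (1449207_a_at) read 3.40, 3.90, 4.06, 3.87 and 3.78 at 0 mg/kg, 4.36, 4.51, 4.61, 4.69 and 5.12 at 3 mg/kg and 4.48, 3.93, 4.20, 4.24 and 4.85 at 10 mg/kg, with 0.85 ± 0.16 (SE, adjusted p = 0.0151) at 3 mg/kg and 0.53 ± 0.16 (SE, adjusted p = 0.0903) at 10 mg/kg, where 1 array lay among the controls. Prc1 and Racgap1, which organize the central spindle, had changes of 0.39 ± 0.12 (SE, adjusted p = 0.136) and 0.31 ± 0.13 (SE, adjusted p = 0.323) at 3 mg/kg and 0.35 ± 0.12 (SE, adjusted p = 0.140) and 0.37 ± 0.13 (SE, adjusted p = 0.158) at 10 mg/kg. Top2a (1442454_at), topoisomerase IIα, was the mitosis gene farthest from a call, with 5.58, 5.34, 5.44, 5.47 and 5.62 at 0 mg/kg, 5.66, 5.44, 5.56, 5.48 and 5.51 at 3 mg/kg and 5.58, 5.37, 5.47, 5.34 and 5.54 at 10 mg/kg in Null mice.

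**Figure D3:**
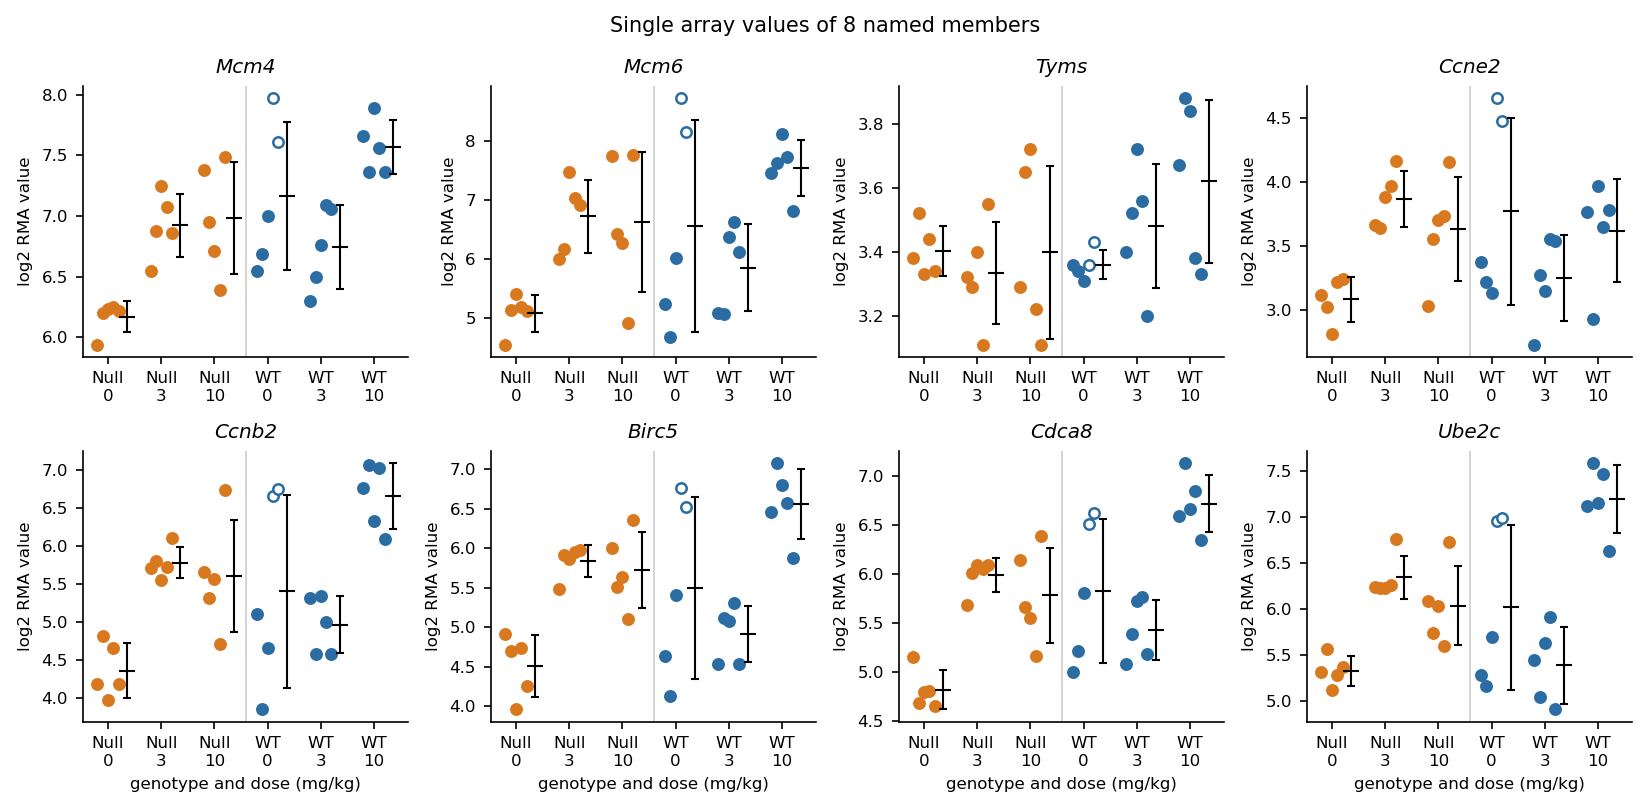
Each panel shows 1 gene, with its log2 RMA value in single arrays (points) and each group's mean with its SD over 5 arrays (black bars, the doubted arrays included) by genotype and dose in mg/kg. Orange is Null, blue is WT, and open circles are the 2 doubted arrays, which for Mcm6 read 8.72 and 8.15, above replicates 1 to 3 of that label at 4.68 to 6.02.

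**Figure D4:**
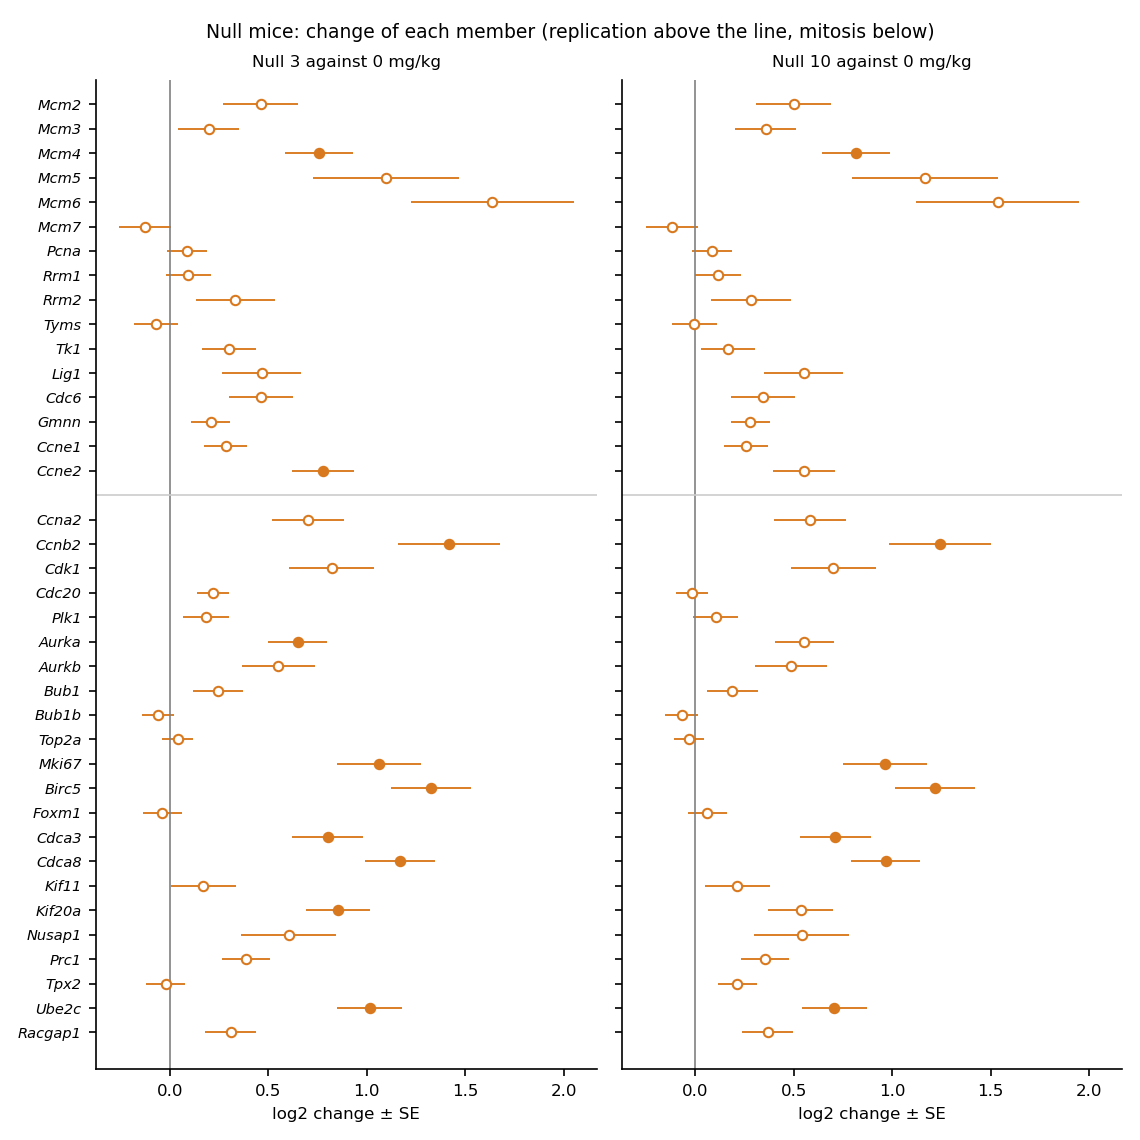
Points are log2 changes ± SE of the 38 genes in Null mice at 3 mg/kg (left) and 10 mg/kg (right) against 0 mg/kg, with replication genes above the line and mitosis genes below, and filled points passed an adjusted p of 0.05 (10 and 7 genes). Mcm6 has the largest changes, 1.64 and 1.54, with open points.

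No gene was called between the 2 PFOS doses in Null mice. For 10 against 3 mg/kg, 0 of the 38 genes were called in either direction by limma, 0 by the methods' t-test at its unadjusted limit of 0.0025, and 2 had an unadjusted p under 0.05 (8.2% of all genes did), where 0% of all genes were called higher and 0% lower. The changes lay between -0.32 (Kif20a) and 0.24 (Tpx2), with a median of -0.061, where the median of all genes was 0.026. Mcm6, with -0.10 ± 0.41 (SE, adjusted p = 0.953), had the widest error, and Top2a, with -0.071 ± 0.078 (SE, adjusted p = 0.793), the narrowest. For Ccnb2 the change was -0.18 ± 0.26 (SE, adjusted p = 0.850) and for Birc5 -0.11 ± 0.20 (SE, adjusted p = 0.882).

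The choice of probe set matters for 13 of the 38 genes, for which the probe set with the smallest p is another one. Under that rule 13 genes were called higher at Null 3 mg/kg, where 0.967% of all genes were, 8 at Null 10 mg/kg, against 2.26%, and 14 at WT 10 against 3 mg/kg, against 2.14%. That rule picks the probe set by its p, so its counts cannot be read as a check of the others. The second probe set of Cdc20 read 4.90, 4.67, 5.26, 4.55 and 4.46 at 0 mg/kg, 5.69, 5.87, 5.93, 6.22 and 6.59 at 3 mg/kg and 5.79, 5.33, 5.46, 4.32 and 6.71 at 10 mg/kg in Null mice, with changes of 1.29 ± 0.30 (SE, adjusted p = 0.0402) and 0.75 ± 0.30 (SE, adjusted p = 0.214), beside 0.22 and -0.018 on the brighter one. The second probe set of Top2a read 4.10, 4.86, 4.47, 4.48 and 4.88 at 0 mg/kg, 5.23, 5.29, 5.83, 5.65 and 6.06 at 3 mg/kg and 5.43, 5.42, 5.69, 4.38 and 5.96 at 10 mg/kg, with 1.05 ± 0.24 (SE, adjusted p = 0.0335) and 0.82 ± 0.24 (SE, adjusted p = 0.0712). Racgap1 on its other probe set had 0.74 ± 0.14 (SE, adjusted p = 0.0110) and 0.62 ± 0.14 (SE, adjusted p = 0.0187). These alternatives add a rise, and probe sets of Cdca3 and Cdca8 that do not match the one used are given below with the difference in response.

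In WT mice at 3 against 0 mg/kg, 0 of the 38 were called in either direction by limma and 0 by the methods' t-test, 2 had an unadjusted p under 0.05 (4.89% of all genes did), and the median change was -0.31, where 0.115% of all genes were called higher and 0% lower. That negative median rests on the 2 doubted arrays. Without them it was 0.045, with 0 genes called and 0.286% of all genes called higher.

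The count at WT 10 against 0 mg/kg depends on the 2 doubted arrays. With all arrays 0 of the 38 genes were called by limma and 0 by the methods' t-test, although 34 of 38 changes were positive (49.1% over all genes), 15 had an unadjusted p under 0.05 (21.7% over all genes), and the median change was 0.34, where 3.39% of all genes were called higher and 1.97% lower. Without the 2 doubted arrays 23 of the 38 were called higher (8 of 16 replication and 15 of 22 mitosis genes) and 0 lower, where 7.51% of all genes were called higher, and the median change was 0.67. The 8 replication genes were Mcm2, Mcm3, Mcm4, Mcm5, Mcm6, Gmnn, Rrm2, and Lig1, and the 15 mitosis genes were Ccna2, Ccnb2, Cdk1, Plk1, Aurka, Aurkb, Bub1, Birc5, Cdca3, Cdca8, Ube2c, Kif20a, Nusap1, Prc1, and Racgap1. In that setting the 5 treated arrays lay above the 3 remaining controls for 25 genes, against 11.6% of all genes. Leaving out replicate 4 alone gave 12 called genes and replicate 5 alone 7, and each other WT array left out gave 0.

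**Figure D5:**
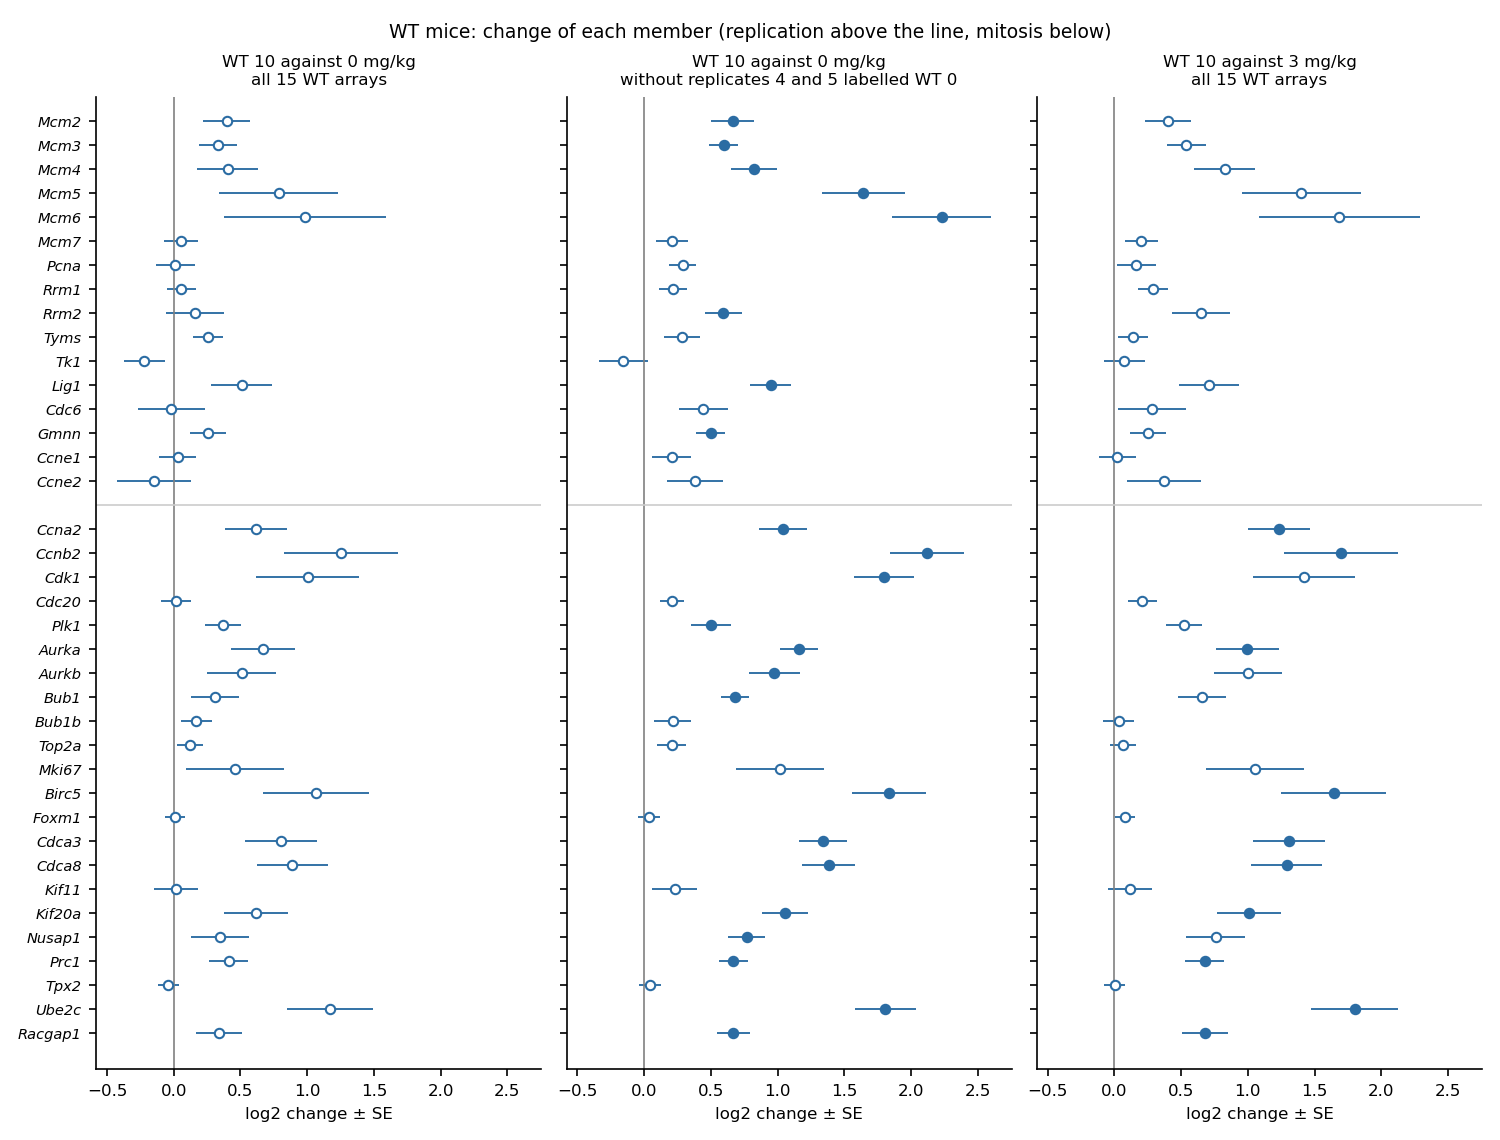
Points are log2 changes ± SE of the 38 genes in WT mice, for 10 against 0 mg/kg with all arrays (left) and without the 2 doubted arrays (middle), and for 10 against 3 mg/kg with all arrays (right). Filled points passed an adjusted p of 0.05, which gives 0, 23, and 10 genes, and replication genes stand above the line.

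The comparison of 10 with 3 mg/kg in WT mice does not use the values of the controls, and it called 10 of the 38 genes higher, all of them mitosis genes, and 0 lower. Of all genes, 1.69% were called higher and 0.984% lower. All 38 changes were positive (51.9% over all genes), the median was 0.65 (0.33 for replication and 0.88 for mitosis genes), against 0.0068 over all genes, and the 5 arrays at 10 mg/kg lay above the 5 at 3 mg/kg for 22 genes (6 replication and 16 mitosis), a pattern shown by 4.45% of all genes. The fit shares its estimate of spread with the controls, and without the 2 doubted arrays 22 genes were called higher, 6 of them replication genes, where 3.53% of all genes were called higher. The count was 6 with a trend and robust spread and 5 with the methods' t-test. Leaving out 1 WT array gave 2 to 18 calls, 18 without replicate 4 labeled WT 0 mg/kg, 3, 3, 5, 6, and 2 without WT 3 mg/kg replicates 1 to 5, and 3, 2, and 5 without WT 10 mg/kg replicates 1, 2, and 4. Ccna2 and Ube2c were called in every one of these runs.

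Ube2c had the largest change of the 10 called genes. It read 5.28, 5.16, 5.70, 6.95 and 6.99 at 0 mg/kg, 5.44, 5.04, 5.63, 5.91 and 4.91 at 3 mg/kg and 7.12, 7.58, 7.15, 7.46 and 6.63 at 10 mg/kg in arrays labeled WT. The arrays at 10 mg/kg all lay above those at 3 mg/kg, the doubted controls lay between the others at 0 mg/kg and most of the 10 mg/kg arrays, and the change was 1.80 ± 0.32 (SE, adjusted p = 0.00914) for 10 against 3 mg/kg and 1.81 ± 0.23 (SE, adjusted p = 0.000119) for 10 against 0 mg/kg without the doubted arrays, beside 1.17 ± 0.32 (SE, adjusted p = 0.0503) with them. Ccnb2 read 5.11, 3.85, 4.66, 6.66 and 6.75 at 0 mg/kg, 5.31, 4.58, 5.34, 5.00 and 4.58 at 3 mg/kg and 6.76, 7.07, 6.33, 7.03 and 6.09 at 10 mg/kg in arrays labeled WT. Its doubted controls lay among the 10 mg/kg arrays, which were all above those at 3 mg/kg, with 1.69 ± 0.43 (SE, adjusted p = 0.0486) for 10 against 3 mg/kg and 2.12 ± 0.28 (SE, adjusted p = 0.000157) against the 3 remaining controls. Ccna2 read 5.71, 5.83, 5.96, 6.94 and 6.86 at 0 mg/kg, 5.36, 5.45, 5.89, 6.14 and 5.40 at 3 mg/kg and 6.75, 6.88, 6.98, 7.28 and 6.49 at 10 mg/kg, which shows no overlap between 10 and 3 mg/kg, and it had a change of 1.23 ± 0.23 (SE, adjusted p = 0.0124).

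Both passenger proteins were higher at 10 than at 3 mg/kg. Birc5 read 4.63, 4.13, 5.41, 6.77 and 6.53 at 0 mg/kg, 4.54, 5.12, 5.08, 5.31 and 4.54 at 3 mg/kg and 6.46, 7.08, 6.80, 6.58 and 5.88 at 10 mg/kg in arrays labeled WT. Its changes were 1.64 ± 0.39 (SE, adjusted p = 0.0408) for 10 against 3 mg/kg and 1.84 ± 0.28 (SE, adjusted p = 0.000559) for 10 against 0 mg/kg without the doubted arrays. Cdca8 read 5.00, 5.21, 5.80, 6.51 and 6.62 at 0 mg/kg, 5.08, 5.38, 5.72, 5.76 and 5.18 at 3 mg/kg and 6.59, 7.13, 6.66, 6.85 and 6.35 at 10 mg/kg. Its change was 1.29 ± 0.26 (SE, adjusted p = 0.0194) and 1.38 ± 0.20 (SE, adjusted p = 0.000406) in these comparisons. For both, every array at 10 mg/kg was above every array at 3 mg/kg. Cdca3 read 5.34, 5.12, 5.42, 6.66 and 6.63 at 0 mg/kg, 5.50, 5.02, 5.50, 5.64 and 4.99 at 3 mg/kg and 6.66, 7.05, 6.52, 6.77 and 6.19 at 10 mg/kg. Its change was 1.31 ± 0.27 (SE, adjusted p = 0.0195). Aurka read 4.95, 4.40, 4.87, 6.08 and 5.87 at 0 mg/kg, 4.94, 4.75, 4.94, 5.05 and 4.85 at 3 mg/kg and 5.93, 6.15, 5.84, 6.08 and 5.51 at 10 mg/kg. Its change was 1.00 ± 0.24 (SE, adjusted p = 0.0397), for 10 against 3 mg/kg.

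The genes of late mitosis and cytokinesis complete the 10. Kif20a read 3.49, 4.04, 3.86, 4.64 and 5.17 at 0 mg/kg, 4.06, 3.78, 4.15, 3.92 and 3.34 at 3 mg/kg and 5.00, 4.95, 4.92, 4.95 and 4.47 at 10 mg/kg in arrays labeled WT. Its change was 1.01 ± 0.24 (SE, adjusted p = 0.0392) for 10 against 3 mg/kg. Prc1 (1423775_s_at) read 6.06, 6.00, 6.09, 6.84 and 6.55 at 0 mg/kg, 5.91, 6.14, 6.16, 6.08 and 5.90 at 3 mg/kg and 6.91, 6.67, 6.54, 6.96 and 6.51 at 10 mg/kg. Its change was 0.68 ± 0.14 (SE, adjusted p = 0.0237). Racgap1 (1451358_a_at) read 4.82, 4.66, 4.96, 5.71 and 5.56 at 0 mg/kg, 4.66, 4.73, 4.89, 5.12 and 4.61 at 3 mg/kg and 5.43, 5.67, 5.44, 5.65 and 5.23 at 10 mg/kg. Its change was 0.68 ± 0.17 (SE, adjusted p = 0.0490). In all 3 genes the arrays at 10 mg/kg lay above those at 3 mg/kg. Cdk1 (1448314_at) read 6.25, 5.95, 6.46, 8.40 and 8.0 at 0 mg/kg, 6.45, 6.42, 6.81, 7.12 and 6.18 at 3 mg/kg and 7.90, 8.26, 8.17, 8.42 and 7.33 at 10 mg/kg and missed the threshold, with 1.42 ± 0.38 (SE, adjusted p = 0.0619). Mki67 read 4.06, 4.03, 5.25, 6.21 and 5.49 at 0 mg/kg, 4.14, 4.22, 4.64, 4.93 and 4.14 at 3 mg/kg and 5.07, 4.96, 6.36, 5.90 and 5.04 at 10 mg/kg. Its 10 mg/kg arrays lay just above those at 3 mg/kg and were widely spread, with 1.05 ± 0.37 (SE, adjusted p = 0.136), and Cdk1 did not overlap either.

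None of the 16 replication genes was called for 10 against 3 mg/kg in WT mice with all arrays. Mcm6 read 5.25, 4.68, 6.02, 8.72 and 8.15 at 0 mg/kg, 5.10, 5.07, 6.37, 6.63 and 6.13 at 3 mg/kg and 7.45, 7.62, 8.12, 7.73 and 6.82 at 10 mg/kg in arrays labeled WT. Its 10 mg/kg arrays were all above those at 3 mg/kg, and the 2 doubted controls were the highest of all 30 arrays, with 1.69 ± 0.61 (SE, adjusted p = 0.149) for 10 against 3 mg/kg, 0.98 ± 0.61 (SE, adjusted p = 0.414) for 10 against 0 mg/kg, and 2.23 ± 0.37 (SE, adjusted p = 0.00115) for 10 against 0 mg/kg without the doubted arrays. Mcm4 read 6.55, 6.69, 7.00, 7.97 and 7.61 at 0 mg/kg, 6.30, 6.50, 6.76, 7.09 and 7.06 at 3 mg/kg and 7.66, 7.36, 7.89, 7.56 and 7.36 at 10 mg/kg. Its change was 0.83 ± 0.23 (SE, adjusted p = 0.0685) for 10 against 3 mg/kg and 0.82 ± 0.17 (SE, adjusted p = 0.00599) against the 3 remaining controls. Lig1 read 6.26, 6.47, 6.83, 7.81 and 7.43 at 0 mg/kg, 6.50, 6.88, 7.04, 6.86 and 6.50 at 3 mg/kg and 7.41, 7.68, 7.64, 7.48 and 7.13 at 10 mg/kg. Its change was 0.71 ± 0.23 (SE, adjusted p = 0.109) and 0.95 ± 0.16 (SE, adjusted p = 0.00105) in these comparisons. The Mcm4 and Lig1 arrays at 10 mg/kg also lay above those at 3 mg/kg.

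Mcm2, Mcm3, and Mcm5 were apart between these doses as well, while Ccne2, Ccne1, Tk1, and Tyms overlapped. Ccne2 read 3.37, 3.22, 3.13, 4.65 and 4.47 at 0 mg/kg, 2.73, 3.27, 3.15, 3.55 and 3.54 at 3 mg/kg and 3.76, 2.93, 3.97, 3.65 and 3.78 at 10 mg/kg in arrays labeled WT. Its change was 0.37 ± 0.28 (SE, adjusted p = 0.563) for 10 against 3 mg/kg and 0.38 ± 0.21 (SE, adjusted p = 0.269) against the 3 remaining controls, and its groups overlapped in both comparisons. Ccne1 read 6.24, 5.46, 6.05, 6.34 and 6.38 at 0 mg/kg, 6.10, 6.09, 6.12, 5.88 and 6.31 at 3 mg/kg and 6.29, 6.06, 6.04, 6.24 and 5.98 at 10 mg/kg in arrays labeled WT. Tk1 read 9.90, 9.53, 9.39, 9.83 and 9.71 at 0 mg/kg, 9.34, 9.80, 9.45, 9.35 and 8.95 at 3 mg/kg and 9.34, 9.42, 9.94, 9.42 and 9.14 at 10 mg/kg. Tyms read 3.36, 3.34, 3.31, 3.36 and 3.43 at 0 mg/kg, 3.40, 3.52, 3.72, 3.56 and 3.20 at 3 mg/kg and 3.67, 3.88, 3.84, 3.38 and 3.33 at 10 mg/kg. In these 3 genes the doses overlapped, and the changes for 10 against 3 mg/kg were 0.022 ± 0.14 (SE, adjusted p = 0.965), 0.075 ± 0.15 (SE, adjusted p = 0.875), and 0.14 ± 0.11 (SE, adjusted p = 0.588) in that order of genes. Tk1 had a negative change for 10 against 0 mg/kg, -0.22 ± 0.15 (SE, adjusted p = 0.481) with all arrays and -0.16 ± 0.18 (SE, adjusted p = 0.661) without the doubted ones.

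The response to PFOS was compared between genotypes as the change in Null mice minus the change in WT mice, in a fit of all 30 arrays. At 3 mg/kg this difference was called for 1 of 38 genes, Cdca8, with 1.57 ± 0.34 (SE, adjusted p = 0.0485), and 0 genes were called lower, where 0.044% of all genes were called higher and 0.176% lower. The median difference was 0.66, 35 of 38 were positive (49.4% over all genes), and 24 had an unadjusted p under 0.05 (11.3% over all genes). On its other probe sets, Cdca8 had 0.45 ± 0.19 (SE, adjusted p = 0.381) and 0.58 ± 0.22 (SE, adjusted p = 0.316), neither called. Cdca3 had 1.31 ± 0.35 (SE, adjusted p = 0.106) on the probe set used. Its other probe sets, which averaged 5.23 and 2.46 over all arrays, had -0.20 ± 0.10 (SE, adjusted p = 0.528) and 0.14 ± 0.10 (SE, adjusted p = 0.741). With only the 4 groups compared in the fit, 0 were called. Without the 2 doubted arrays 0 genes were called and 0% of all genes were called higher, with a median of 0.35 and 1.08 ± 0.29 (SE, adjusted p = 0.177) for Cdca8. Cdca8 was also lost in 21 of 30 runs with 1 array left out, and the count was 11 without WT 0 mg/kg replicate 2, 4 without replicate 1, 2 without Null 10 mg/kg replicate 4, and otherwise 0 or 1. At 10 mg/kg 0 genes were called by limma in either direction and 0 had an unadjusted p under 0.05 (12.9% of all genes did), with a median of 0.035, where 0.198% of all genes were called higher and 1.19% lower. Without the 2 doubted arrays the median was -0.30, again with 0 called.

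The genotypes were also compared at each dose. At 0 mg/kg, Null mice were lower for 2 of 38 genes, Mcm4 with -0.997 ± 0.22 (SE, adjusted p = 0.0321) and Cdca8 with -1.01 ± 0.24 (SE, adjusted p = 0.0495), and higher for 0, where 0.308% of all genes were called lower and 0.308% higher. Both calls were lost without the 2 doubted arrays, where 0 of 38 were called and 0.627% of all genes were lower, with -0.58 ± 0.20 (SE, adjusted p = 0.221) for Mcm4 and -0.52 ± 0.22 (SE, adjusted p = 0.359) for Cdca8. Of 30 runs with 1 array left out, Mcm4 lost its call in 7 and Cdca8 in 22, among them those without either doubted array.

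At 3 mg/kg, Null mice were higher for 3 of 38 genes and lower for 0, where 2.78% of all genes were called higher and 2.75% lower. These were Kif20a with 0.81 ± 0.22 (SE, adjusted p = 0.0297), Cdc20 with 0.35 ± 0.096 (SE, adjusted p = 0.0315), and Ube2c with 0.96 ± 0.28 (SE, adjusted p = 0.0408). Ube2c read 6.24, 6.23, 6.23, 6.26 and 6.76 in Null mice, against 5.44, 5.04, 5.63, 5.91 and 4.91 in WT mice, and Kif20a 4.36, 4.51, 4.61, 4.69 and 5.12 in Null mice, against 4.06, 3.78, 4.15, 3.92 and 3.34 in WT mice, with no overlap for either gene. Cdc20 read 6.64, 6.88, 6.77, 6.68 and 7.01 in Null mice, against 6.54, 6.40, 6.58, 6.52 and 6.20 in WT mice, also apart. The Null arrays lay above the WT arrays for 9 genes, 8 of them mitosis genes, against 3.67% of all genes. The control arrays enter this comparison through the estimate of spread alone, and with the 2 doubted arrays out of the fit 7 genes were called, where 3.07% of all genes were called higher. With only the 2 groups compared in the fit, 11 were called, a count given without the share of all genes and so not read alone. The count was 0 without Null 3 mg/kg replicate 2 or 5 or WT 3 mg/kg replicate 5, and 1 without WT 3 mg/kg replicate 1.

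At 10 mg/kg, Null mice were lower for 4 of 38 genes and higher for 0, where 4.33% of all genes were called lower and 3.29% higher. These were Ube2c with -1.15 ± 0.28 (SE, adjusted p = 0.00934), Cdca8 with -0.93 ± 0.24 (SE, adjusted p = 0.0161), Top2a with -0.31 ± 0.086 (SE, adjusted p = 0.0252), and Cdk1 with -1.10 ± 0.33 (SE, adjusted p = 0.0465). Ube2c read 6.09, 5.74, 6.03, 5.60 and 6.72 in Null mice, against 7.12, 7.58, 7.15, 7.46 and 6.63 in WT mice, and Cdca8 6.14, 5.66, 5.55, 5.16 and 6.39 in Null mice, against 6.59, 7.13, 6.66, 6.85 and 6.35 in WT mice. Cdk1 read 7.18, 6.82, 6.85, 6.08 and 7.65 in Null mice, against 7.90, 8.26, 8.17, 8.42 and 7.33 in WT mice, and Top2a 5.58, 5.37, 5.47, 5.34 and 5.54 in Null mice, against 5.57, 5.76, 5.93, 5.94 and 5.66 in WT mice. Each of the 4 genes overlapped between the genotypes through its highest Null and lowest WT arrays, and of the 38 genes Bub1 alone, not called, had all Null arrays below all WT arrays, against 3.83% of all genes. With the 2 doubted arrays out of the fit 13 genes were called lower, where 4.68% of all genes were, and leaving out 1 array gave 1 to 11, with 1 without Null 10 mg/kg replicate 3 or 4, 11 without replicate 5, and 8 without Null 10 mg/kg replicate 1 or WT 0 mg/kg replicate 4.

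Wider lists of the same processes were read in the same fits. Of 46 other replication genes measured, 0 were called higher and 1 lower at Null 3 mg/kg, and 1 was called higher and 0 lower at Null 10 mg/kg, with median changes of 0.058 and 0.061. Of all genes, 0.726% passed upward and 1.22% downward at the lower dose, and 1.73% and 2.18% at the higher. Of 55 other mitosis genes, 0 were called at Null 3 mg/kg and 5 higher and 0 lower at Null 10 mg/kg, with medians of 0.15 and 0.17. For WT 10 against 3 mg/kg the counts higher were 1 of 46 and 12 of 55, where 1.69% of all genes were, with medians of 0.16 and 0.33. They were 10 and 26 without the 2 doubted arrays, where 3.53% of all genes were. For WT 10 against 0 mg/kg, 14 of 46 and 24 of 55 were called higher without the 2 doubted arrays, where 7.51% of all genes were, and 1 and 4 with them, where 3.39% were. Ckap2, a spindle protein, read 5.51, 5.12, 5.27, 5.43 and 5.31 at 0 mg/kg, 5.86, 5.86, 6.00, 5.98 and 6.06 at 3 mg/kg and 5.84, 5.69, 5.75, 5.86 and 6.76 at 10 mg/kg in Null mice, with 0.65 ± 0.15 (SE, adjusted p = 0.0257) at 10 mg/kg, and no treated array overlapped the controls.

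Regulators upstream of these processes were read in Null mice as well. Of 26 genes of G1 and E2F control, 1 rose at 3 mg/kg, where 0.726% of all genes did, 2 rose at 10 mg/kg, against 1.73%, and 0 fell. E2f3, an activating E2F factor, read 6.25, 6.20, 6.22, 6.11 and 6.18 at 0 mg/kg, 6.75, 7.12, 6.66, 6.83 and 6.49 at 3 mg/kg and 6.79, 6.91, 6.46, 7.00 and 7.19 at 10 mg/kg in Null mice, with 0.58 ± 0.12 (SE, adjusted p = 0.0241) and 0.68 ± 0.12 (SE, adjusted p = 0.00581), and its binding partner Tfdp1 had 0.31 ± 0.076 (SE, adjusted p = 0.0330) at 10 mg/kg. Of 17 cyclin-dependent kinase inhibitors and arrest genes, 1 was called lower at Null 3 mg/kg, against 1.22% of all genes, and 2 higher and 1 lower at Null 10 mg/kg, against 1.73% and 2.18%. Cdkn1b, the inhibitor p27, read 7.43, 7.74, 7.77, 7.79 and 7.88 at 0 mg/kg, 7.26, 7.32, 7.42, 6.69 and 6.88 at 3 mg/kg and 6.73, 7.09, 7.09, 6.72 and 6.48 at 10 mg/kg in Null mice, and it fell at both doses, with -0.61 ± 0.15 (SE, adjusted p = 0.0463) and -0.90 ± 0.15 (SE, adjusted p = 0.00314). Gadd45b, a stress gene, rose at 10 mg/kg with 1.19 ± 0.21 (SE, adjusted p = 0.00525), and Wee1, the kinase that holds Cdk1 inactive, with 1.42 ± 0.33 (SE, adjusted p = 0.0236). For 10 against 3 mg/kg, Cdkn1b had -0.29 ± 0.15 (SE, adjusted p = 0.596) in Null mice and -0.27 ± 0.10 (SE, adjusted p = 0.183) in WT mice, and Gadd45b 0.76 ± 0.21 (SE, adjusted p = 0.564) in Null mice and 1.52 ± 0.33 (SE, adjusted p = 0.0251) in WT mice.

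Markers of other cells were read beside these results, and their part in them was not tested. Of the 7 neutrophil markers measured, 1 was called higher at Null 10 mg/kg, S100a8, with 3.11 ± 0.79 (SE, adjusted p = 0.0400), where 1.73% of all genes were. The others changed by -0.091 (S100a9), -0.072 (Elane), -0.059 (Camp), 0.033 (Ltf), 0.060 (Ngp), and 0.11 (Mpo), none of them called. In Null arrays the mean of the 7 ran over 5.16 to 5.49 without PFOS, 5.27 to 5.87 after 3 mg/kg, and 5.38 to 6.09 after 10 mg/kg. Its rise at 10 mg/kg rests on S100a8, and the other markers did not rise as a set. S100a8, a calcium-binding protein abundant in neutrophils, read 5.15, 4.99, 6.16, 5.27 and 5.21 at 0 mg/kg, 5.80, 5.84, 8.99, 7.63 and 6.18 at 3 mg/kg and 9.94, 10.38, 6.09, 6.03 and 9.87 at 10 mg/kg in Null mice and 5.10, 4.50, 6.56, 10.60 and 10.37 at 0 mg/kg, 6.02, 5.47, 6.67, 6.61 and 7.32 at 3 mg/kg and 9.83, 10.33, 9.70, 9.45 and 9.79 at 10 mg/kg in arrays labeled WT. It was high in the 2 doubted arrays, as the mean of the mitosis genes was. At Null 10 mg/kg it was low in replicate 4, whose mitosis mean was 5.14, and in replicate 3, whose mitosis mean of 5.54 lay above all Null controls. Its partner S100a9 stayed between 4.86 and 7.17 in all 30 arrays. Of the 12 macrophage markers, 0 were called higher and 3 lower at Null 10 mg/kg, with a median of -0.37, where 1.73% of all genes were called higher and 2.18% lower. Of 13 lymphocyte, 8 erythroid, 8 stellate, and 5 cholangiocyte markers, 0 were called at Null 10 mg/kg, and of 8 endothelial markers 1 was called higher. In WT mice at 10 against 0 mg/kg 1 of the 9 hepatocyte markers was called lower with all arrays and 0 of the other markers in either direction. Of all genes, 3.39% were called higher and 1.97% lower there. Without the 2 doubted arrays, where 23 of the 38 genes were called, S100a8 was called higher, with 4.43 ± 0.40 (SE, adjusted p = 5.22e-06), and 3 endothelial (Stab2, Kdr, and Clec4g), 2 stellate (Lrat and Reln), 2 hepatocyte (Hnf4a and Cps1), and 1 macrophage marker (Clec4f) were called lower, where 7.51% of all genes were called higher and 7.17% lower. At WT 10 against 3 mg/kg 0 markers were called with all arrays, where 1.69% of all genes were called higher and 0.984% lower. Without the 2 doubted arrays S100a8 was higher, with 3.40 ± 0.35 (SE, adjusted p = 7.98e-05), where 3.53% of all genes were called higher. Hnf4a and Cps1 were called lower in that setting, for which the share of all genes called lower is not given, so these calls are not read as a count.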

How the data were processed

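Liver RNA of 30 single mice was profiled on 1 array each. The authors normalized the scanner data by robust multiarray averaging and deposited log2 expression values for 45101 probe sets, which were used as given. The 64 control probe sets were left out, and 45037 were tested. Gene names came from the platform annotation, updated by gene ID, with 34958 probe sets naming 1 gene, 932 several, and 9211 none, and 18193 genes were read by their highest-mean probe set. The 30 arrays were labeled and hybridized in 1 block, and no batch is given, so none could be fitted.

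Differences were fitted in R 4.3.3 by the linear models of limma 3.58.1 with moderated variances, with the 15 arrays of each genotype for dose comparisons and all 30 for genotype comparisons. P-values were adjusted over all tested probe sets by the Benjamini-Hochberg method, and genes with an adjusted p under 0.05 were called. Other probe sets, filters, normalizations, variance models, tests, and arrays left out were tried. The methods' t-test used pairwise tests within each strain at an unadjusted limit of 0.0025. The scripts were tested on simulated data. The genes, lists, and tests were chosen with earlier results of these data known. Values in every array are shown for the 2 genes of each role with the smallest p in the Null dose comparisons, the replication and the mitosis gene with the largest, and genes called in WT or genotype comparisons. From each wider list at most the 4 genes with the smallest p at Null 10 mg/kg are named, besides markers and those in the closing section, and other probe sets of Cdc20, Top2a, Racgap1, Cdca3, and Cdca8 were chosen after their values were seen. Each mouse is a replicate, and the number of arrays limits the precision. Promoters came from RefSeq (GRCm38.p6), while the array files name no genome build.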

Additional observations from a re-analysis of the deposited data

Results flagged for a closer look

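Within groups of 5 arrays, 138 sets of values were checked for an array far from the other 4 by Dixon's criterion, and 6 were found, where chance marks about 5% of groups. Mcm4 read 5.94 in Null 0 mg/kg replicate 1, below 6.20 to 6.25 in the other 4 arrays. Replicate 1 of Null 3 mg/kg was low for both passenger proteins, with 5.68 for Cdca8 (6.01 to 6.09 in the others) and 5.49 for Birc5 (5.87 to 5.98 in the others). Replicate 5 of Null 3 mg/kg was high for the genes around the anaphase-promoting complex, with 6.76 for Ube2c (6.23 to 6.26 in the others) and 6.22 for Cdca3 (5.90 to 5.94 in the others). Kif20a read 4.47 in WT 10 mg/kg replicate 5, below 4.92 to 5.00 in the other 4.

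The response of Cdca8 at 3 mg/kg differed between Null and WT mice by 1.57 on the log2 scale (limma, adjusted p = 0.0485) on the probe set used. This difference was 1.08 with an adjusted p of 0.177 without the 2 doubted arrays. On the other probe sets of Cdca8, with all arrays, it was 0.45 (limma, adjusted p = 0.381) and 0.58 (limma, adjusted p = 0.316).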

How the results depend on the processing

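Counts of the 38 genes called higher are given for settings that moved them by more than 1.5 times, and the cause was not tested. The share of all genes called can move with the setting as well. Where that share is not given, these counts, and those with 1 array left out, are not read alone. With the other genotype's arrays in the fit, 5 and 3 genes were called in Null mice at 3 and 10 mg/kg, and 2 at WT 10 against 0 mg/kg. With only the groups compared in the fit, 0 genes were called for the genotype difference in response at 3 mg/kg, and 11 genes were higher in Null than WT mice at 3 mg/kg. At WT 10 against 0 mg/kg, 2 genes were called with either filter on dim probe sets, with probe sets not marked as shared, or with array weights, and 1 with arrays shifted to one median or at an unadjusted p of 0.0025. At WT 10 against 3 mg/kg the count was 6 with a trend and robust spread, 5 with the methods' t-test, and 16 at an unadjusted p of 0.0025. For the difference in response at 3 mg/kg it was 3 with either filter or with the smallest-p probe set, 5 with array weights, 11 at an unadjusted p of 0.0025, and 0 with probe sets not marked as shared, arrays shifted to one median, or a trend and robust spread. Array weights gave 5 genes higher in Null than WT mice at 3 mg/kg. Without the 2 doubted arrays the counts were 23 at WT 10 against 0 mg/kg, 22 at WT 10 against 3 mg/kg, 0 for the difference in response at 3 mg/kg, and 7 for Null against WT mice at 3 mg/kg.

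With 1 array left out, counts ranged over 5 to 13 (Null 3 mg/kg), 4 to 13 (Null 10 mg/kg), 0 to 12 (WT 10 against 0 mg/kg), 2 to 18 (WT 10 against 3 mg/kg), 0 to 11 (difference in response at 3 mg/kg), and 0 to 4 (Null against WT mice at 3 mg/kg), and stayed at 0 for Null 10 against 3 mg/kg, WT 3 mg/kg, and the difference in response at 10 mg/kg. Cdca3 turned to -0.038 at 3 mg/kg and -0.0025 at 10 mg/kg in Null mice on a probe set not marked as shared, which averaged only 2.46, too dim to read a sign from. Of 468 alternatives for single genes, 406 kept the call, 60 lost it, and these 2 changed sign. This tally includes settings that can hardly lose a call, such as the smallest-p probe set and both filters, so it is not a measure of robustness. It leaves out the runs with 1 array left out. Those runs all kept 5 of the 10 calls at Null 3 mg/kg, 4 of 7 at Null 10 mg/kg, and 2 of 10 at WT 10 against 3 mg/kg.

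The labels give no pairing of mice by replicate number, and none was fitted in the main results. Deviations of same-numbered arrays correlated between -0.23 and 0.32 over 75 pairs, with a median of 0.037 and 24 of them above 0.1. Over 300 pairs with other numbers the median was -0.016, with 64 above 0.1. With the replicate number as a block, 9 and 8 genes were called in Null mice at 3 and 10 mg/kg, 10 at WT 10 against 3 mg/kg, 1 for the difference in response at 3 mg/kg, 3 higher in Null than WT mice at 3 mg/kg, and 0 in the other comparisons, where 1 and 3 were lower in Null than WT mice at 0 and 10 mg/kg.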

Other observations

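Of 26 genes of G1 and E2F control, 2 were called higher and 1 lower in WT mice at 10 against 0 mg/kg, where 3.39% of all genes were called higher and 1.97% lower, and these 3 are named after their values were seen. Leaving out the 2 doubted arrays, 5 were called higher and 1 lower, against 7.51% and 7.17% of all genes. Ccnd1, the cyclin that starts G1 progression, changed by 0.86 ± 0.23 (SE, adjusted p = 0.0451) in limma and by 0.96 ± 0.27 (SE, adjusted p = 0.0310) without the 2 doubted arrays. Ccnd3, a related cyclin, had 0.41 ± 0.095 (SE, adjusted p = 0.0228), and 0.31 ± 0.10 (SE, adjusted p = 0.0638) without them, where its call was lost. Rbl2, a repressor of E2F targets in resting cells, changed by -0.36 ± 0.096 (SE, adjusted p = 0.0419), and by -0.38 ± 0.12 (SE, adjusted p = 0.0448) without them. In Null mice at 10 against 0 mg/kg the values were 0.48 ± 0.19 (SE, adjusted p = 0.208) for Ccnd1, 0.13 ± 0.096 (SE, adjusted p = 0.572) for Ccnd3, and -0.073 ± 0.094 (SE, adjusted p = 0.782) for Rbl2. The difference in response between Null and WT mice at 10 mg/kg was -0.38 ± 0.32 (SE, adjusted p = 0.725) for Ccnd1, -0.28 ± 0.13 (SE, adjusted p = 0.426) for Ccnd3, and 0.29 ± 0.13 (SE, adjusted p = 0.400) for Rbl2 in the fit of all 30 arrays. It was, without the 2 doubted arrays, -0.48 ± 0.35 (SE, adjusted p = 0.618) for Ccnd1, -0.18 ± 0.14 (SE, adjusted p = 0.650) for Ccnd3, and 0.30 ± 0.15 (SE, adjusted p = 0.383) for Rbl2.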
